A study of Sus scrofa with 12 samples.

Results

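The levels and m6A peaks of 9 genes that mark the epithelial identity of IPEC-J2 cells were examined, namely SI, HNF4A, EPCAM, ELF3, KRT7, KRT8, KRT18, KRT19 and VIM. They were taken by name, and their gene identifiers were found through the symbols of the deposited peak table, or through the reference gene table for SI. Of the 9 genes, 8 had an identifier and an expression level among 20889 genes, and 7 had at least 1 of the 25055 distinct m6A peaks, 11 peaks in all. KRT19 had no identifier in either table, and SI had a level but no peak. IPEC-J2 is a non-transformed epithelial line from the jejunum of a newborn piglet, here of wild-type genotype (WT). The cells grew in DMEM/F12 with FBS, penicillin and streptomycin. They were compared after 24 h with 25 µM OAA (called OAA here) and after 24 h with 0 µM OAA (CON), with 3 numbered replicates of each. The labels do not spell out OAA, and they do not say whether the replicates were separate cultures, so the p-values below cover the variation among these libraries alone, and part or all of it may be technical. All samples came from 1 cell line.

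Epithelial cells are held by keratin filaments, which are built from pairs of a type II keratin (KRT7, KRT8) and a type I keratin (KRT18, KRT19). VIM encodes vimentin, the filament protein of mesenchymal cells that many cultured epithelial lines also make. EPCAM is a surface adhesion molecule of epithelia, ELF3 is an epithelial ETS transcription factor, HNF4A is the nuclear receptor that controls enterocyte genes, and SI (sucrase-isomaltase) is a brush border enzyme of differentiated enterocytes. N6-methyladenosine, m6A, is a methyl mark on adenosines of messenger RNA that is typically dense around the stop codon and in the 3′ UTR. It is mapped by MeRIP-seq, in which fragmented RNA is pulled down with an m6A antibody and read beside an untreated part.

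Each replicate gave a library labelled input and a library labelled IP, 12 in all. The labels and the library codes disagree on which of the 2 is the antibody part, and the labels are used here as names only. Labelled-input libraries held 19.0 to 21.5 M reads (M, mega) in peaks in OAA and 16.5 to 23.0 M in CON, and labelled-IP libraries held 4.36 to 4.61 M in OAA and 3.71 to 4.46 M in CON. Gene levels, in FPKM (fragments per kilobase of gene, scaled to the depth of the library), were deposited for the 6 libraries whose codes are those labelled IP. Should those libraries be the antibody part, FPKM measures RNA bound by the antibody rather than all RNA of a gene, and every level below is meant with that limit. The peak ratio is the log2 of reads in labelled input over reads in labelled IP, which is how the authors' deposited ratios run, scaled so that the typical peak lies near 0. A positive ratio thus means more reads in labelled input than at the typical peak, and because of the label conflict no amount of m6A is read from it. The p-values of peak ratios below are against this 0, which the scaling sets. The regions were deposited as peaks, so these p-values do not test whether a peak exists. Of all peaks tested, 68.5% were called in OAA and 68.1% in CON. Of the 6 FPKM libraries, OAA replicate 3 was the lowest in 4 of the 8 genes and the highest in 1. How often it was an extreme over all genes was not counted.

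VIM, an RNA of mesenchymal cells, had the highest FPKM of the 8 genes, ahead of the epithelial keratin KRT8 and of EPCAM. VIM stood at 1363, 1355 and 1261 FPKM in OAA replicates 1, 2 and 3, against 1235, 1267 and 1243 FPKM in CON. Its mean ranked 47 among the 20889 genes. KRT8 stood at 417, 404 and 350 FPKM in OAA, against 382, 397 and 424 FPKM in CON. The VIM level was 3.25 times the KRT8 level over the 6 libraries, and no library of one overlapped with the other. EPCAM had 189, 184 and 195 FPKM in OAA, against 205, 198 and 202 FPKM in CON, and ranked 286.

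KRT18, the usual partner of KRT8, and KRT7 lay close together and well below KRT8. KRT18 was at 76.0, 72.7 and 62.3 FPKM in OAA, against 73.8, 74.3 and 80.6 FPKM in CON. KRT7 was at 71.0, 70.1 and 61.3 FPKM in OAA, against 63.6, 65.6 and 68.1 FPKM in CON. The ranges of these 2 keratins overlapped between libraries, but KRT18 was above KRT7 within each of the 6, by 1.02 to 1.18 times. KRT8 exceeded KRT18 by 5.49 to 5.63 times in OAA libraries and by 5.18 to 5.35 times in CON libraries, a description of a ratio chosen after the values were seen. Keratin genes have near-identical relatives and pseudogenes, and how the authors' counting treated reads shared among them is not given in the sources used here.

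The regulators and the enterocyte enzyme had the lowest levels. ELF3 was at 35.9, 31.7 and 32.6 FPKM in OAA, against 32.5, 33.1 and 39.1 FPKM in CON. SI was at 11.6, 10.9 and 15.4 FPKM in OAA, against 13.4, 13.4 and 11.9 FPKM in CON. HNF4A was at 10.4, 9.86 and 9.01 FPKM in OAA, against 10.2, 10.9 and 11.0 FPKM in CON. SI and HNF4A overlapped between libraries, and within each of the 6 SI was above HNF4A, by 1.08 to 1.71 times. ELF3 lay above both in every library, 2.68 times higher than SI on average.

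**Figure D1:**
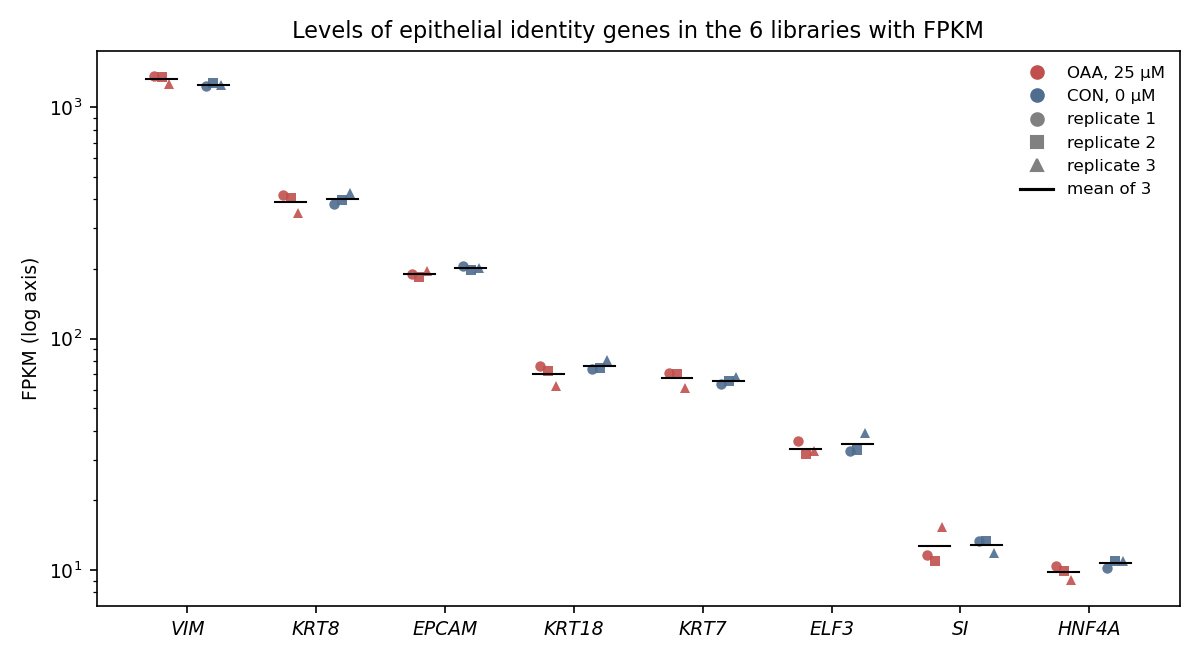
Levels of 8 epithelial identity genes in FPKM on a log axis. Points are single libraries (OAA left, CON right, symbol by replicate) and black lines are means of 3. VIM lies at 1235 FPKM or more in every library, and HNF4A and SI lie near 10 FPKM. Only the points of EPCAM do not overlap between OAA and CON. The share of all genes without overlap was not counted, so this does not set EPCAM apart from other genes.

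None of the 8 genes differed between OAA and CON after adjustment. The test was limma on log2(FPKM + 1), and it called 0 of 10763 genes tested (0%). At an unadjusted p under 0.05 it held 356 genes (3.31%) and none of the 8. Without OAA replicate 3 it still called none, but 1763 of 10706 genes (16.5%) were at an unadjusted p under 0.05, among them 4 of the 8, VIM, EPCAM, KRT7 and SI. Differences were above 0 for 2 genes, VIM and KRT7, and below 0 for 6, beside a median of -0.01 over all genes tested, 43.0% of which were above 0. EPCAM was the only gene of the 8 whose OAA and CON libraries did not overlap. The share of all genes without overlap was not counted, so this does not set EPCAM apart from other genes. EPCAM averaged 189 ± 5.48 FPKM in OAA and 202 ± 3.65 FPKM in CON (SD, n = 3 each). Its log2 difference was -0.09 (95% interval -0.19 to 0.00), with a limma p of 0.0574 and an adjusted p of 1.00. In bulk RNA, fewer cells that make a transcript and less of it per cell cannot be told apart.

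VIM averaged 1326 ± 56.8 FPKM in OAA and 1249 ± 16.7 FPKM in CON (SD, n = 3 each), and its lowest OAA library lay within the CON range. Its log2 difference was 0.09 (95% interval -0.01 to 0.18; limma p of 0.0613, adjusted p of 1.00). Without OAA replicate 3 it was 0.12, with an unadjusted limma p of 0.000872 and an adjusted p of 0.124. EPCAM was then at -0.11, with an unadjusted limma p of 0.00597 and an adjusted p of 0.158. The other 6 genes had differences between -0.12 (HNF4A and KRT18) and 0.03 (KRT7). Without OAA replicate 3, SI was at -0.18 (unadjusted limma p of 0.0353, adjusted p of 0.272), KRT7 at 0.10 (unadjusted p of 0.0346, adjusted p of 0.271), KRT18 at -0.04, HNF4A at -0.07 and ELF3 at -0.04, and KRT8 turned sign to 0.03. The interval for KRT8 ran from -0.19 to 0.11, that for KRT18 from -0.29 to 0.05, that for HNF4A from -0.29 to 0.04 and that for SI from -0.29 to 0.22. These intervals give the differences that 3 libraries a group allow for each gene, without adjustment for the number of genes.

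KRT19 encodes the small type I keratin of simple epithelia, and no value could be given to it. In the reference gene table (Sscrofa11.1) it lies between a pseudogene and KRT15. The highest keratin level in the files stood under the identifier named KRT14, at 452 ± 43.0 FPKM in OAA and 466 ± 8.09 FPKM in CON (SD, n = 3 each). KRT14 is a keratin of basal cells of stratified epithelia. Its 3 listed peaks, however, lay over separate gene spans, chr12:21024314-21041998 and chr12:21074978-21079388. One of them, chr12:21079301-21115835, was 36535 bases wide and held 0 reads in all 12 libraries. The larger start codon peak held 39 reads over the 6 labelled-IP libraries, or 10.1 reads per kilobase and per M peak reads. The KRT8 start codon peak held 1020 on this scale, at 396 FPKM against the 459 FPKM of KRT14 over the 6 libraries. The scale varied widely among the other genes. VIM held 2040 (at 1287 FPKM) and EPCAM 230 (at 195.6 FPKM). KRT18 held 21.4 (at 73.27 FPKM), the KRT7 peaks 14.8 and 33.2 (at 66.62 FPKM) and ELF3 13.3 (at 34.16 FPKM). Whether reads of other keratins enter the KRT14 level was not tested. KRT15 was at 0.152 ± 0.0887 FPKM in OAA and 0.204 ± 0.0843 FPKM in CON, and KRT1, KRT2, KRT4 and KRT20 were listed at 0 in all 6 libraries.

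Few markers of differentiated enterocytes besides SI reached 1 FPKM. Of 8 enterocyte markers in the table, 2 had a mean of at least 1 FPKM, SI and the apolipoprotein gene APOA1, and the markers summed to 16.3 to 20.4 FPKM in OAA libraries and 17.8 to 19.9 FPKM in CON libraries. Markers of other cells had lower sums, except that the leukocyte and hepatocyte sums were higher and rested mostly on 1 gene each. The enterocyte sum likewise rested mostly on SI, at 12.8 FPKM over the 6 libraries. Goblet cell markers were at 1 FPKM or more in 1 of 6 genes, with MUC2 and TFF3 listed at 0. Enteroendocrine, stem cell and fibroblast markers reached it in 0 of 5, 0 of 5 and 0 of 7 genes, with LGR5, OLFM4, LUM and DCN at 0. Of 4 endothelial markers 3 reached it, led by CDH5 at 3.72 ± 0.379 FPKM in OAA and 3.85 ± 0.657 FPKM in CON. Leukocyte markers reached it only in LYZ (lysozyme), at 27.2 ± 0.759 FPKM in OAA and 27.5 ± 1.02 FPKM in CON, with PTPRC at 0. Hepatocyte markers reached it only in CYP3A29, at 25.25 ± 0.943 FPKM in OAA and 26.5 ± 1.45 FPKM in CON, with TTR and SERPINA1 at 0. Among epithelial surface genes 14 of 15 had a mean of at least 1 FPKM, all but PROM1, and among keratins 7 of 12 did. Among epithelial factors 10 of 15 did, with GRHL2 at 0 and ESRP2 at 0.084 FPKM. The enterocyte markers other than SI and APOA1 averaged from 0.00267 FPKM (FABP2) to 0.861 FPKM (APOA4) over the 6 libraries. In the wider brush border list 6 of 20 genes reached 1 FPKM, EZR, SI, USH1C, APOA1, PDZK1 and DPP4.

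The 11 peaks lay at the ends of the transcripts. Of these, 7 covered a start codon (ELF3, VIM, EPCAM, KRT8, KRT18 and 2 abutting peaks of KRT7), 2 covered a stop codon (HNF4A and ELF3) and 2 lay in the 3′ UTR of HNF4A. Over all peaks, 21.1% covered a start codon only, 25.1% a stop codon only and 17.7% lay within the 3′ UTR. Positions are those of the deposited table, made 1-based, and the genome build is not given in the sources used here. SI had none, as did 385 of 4213 genes (9.14%) with a mean of 5 to 20 FPKM.

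**Figure D2:**
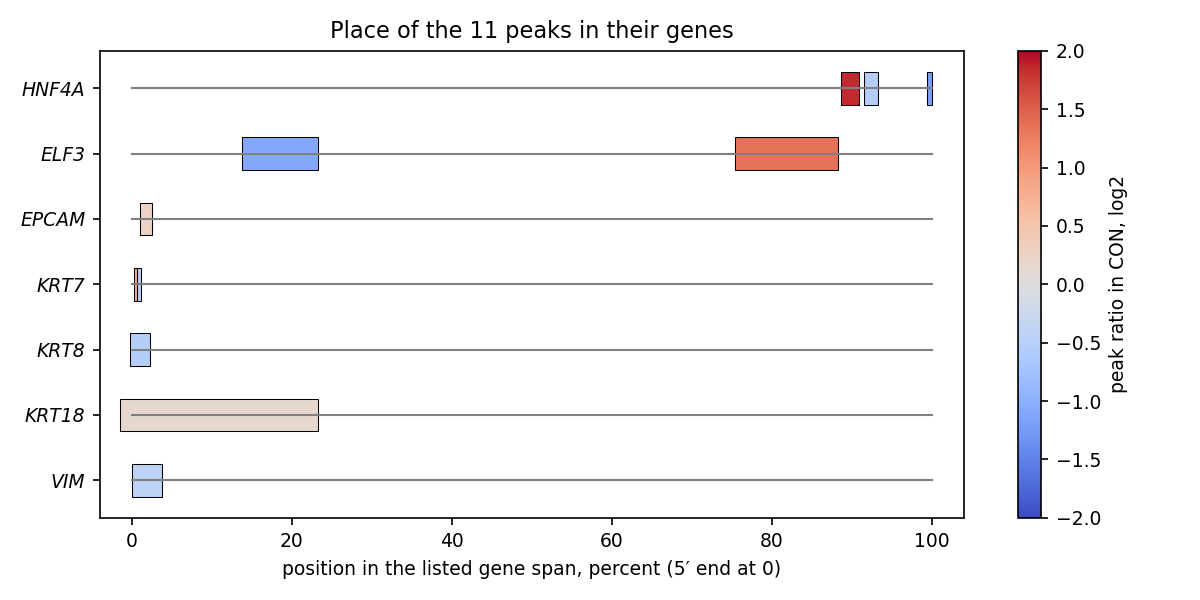
Place of the 11 peaks along the listed gene span, in percent with the 5′ end at 0. Bars are peaks at their true width, coloured by the log2 peak ratio in CON, and grey lines are genes. The stop codon peaks of HNF4A and ELF3 have the highest ratios, and the KRT18 peak begins before the listed start of the gene.

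HNF4A carried the highest peak ratio of the set, at its stop codon, and ratios below the typical peak further along its 3′ UTR. The stop codon peak, chr17:46844502-46845101 on the plus strand, held 3621, 3365 and 2875 reads in labelled input against 259, 238 and 254 in labelled IP of OAA. In CON it held 3832, 2589 and 3604 reads in labelled input against 223, 248 and 209 in labelled IP. Scaled for depth, these counts gave log2 ratios between libraries of the same number. They were 1.63 to 1.92 in OAA and 1.77 to 1.94 in CON, well above 0 in every replicate of both. The edgeR quasi-likelihood estimate was 1.81 ± 0.09 in OAA (SE, adjusted p = 1.3e-17) and 1.85 ± 0.09 in CON (SE, adjusted p = 1.04e-17). These values stood at the percentiles 88.4 in OAA and 88.9 in CON of all peaks.

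The 3′ UTR peaks of HNF4A had ratios below 0, as did the typical peak within a 3′ UTR. Over all such peaks the median was -0.26 in OAA and -0.29 in CON. In OAA 26.9% of them were called higher and 40.6% lower, and in CON 26.4% higher and 41.2% lower. Within this class the upstream HNF4A peak stood at the percentiles 39.6 in OAA and 43.0 in CON. The downstream HNF4A peak stood at 21.2 in OAA and 21.6 in CON. The upstream one, chr17:46845252-46845726, had ratios of -0.80 to -0.39 over OAA replicates and -0.99 to -0.28 over CON replicates. Its edgeR estimate was -0.63 ± 0.21 in OAA (SE, adjusted p = 0.00791) and -0.53 ± 0.22 in CON (SE, adjusted p = 0.0298). The downstream one, chr17:46847327-46847501, stops 2 bases short of the listed gene end and had -1.20 ± 0.22 in OAA (adjusted p = 1.27e-05) and -1.22 ± 0.22 in CON (adjusted p = 1.47e-05). In each of the 6 replicates the HNF4A stop codon peak exceeded the mean of the HNF4A 3′ UTR peaks. The difference was 2.73 ± 0.14 on the log2 scale (SD, n = 6, range 2.55 to 2.89). Stop codon peaks of the whole table had medians of 0.28 in OAA and 0.29 in CON, also above those of 3′ UTR peaks. The call of the upstream peak was lost with DESeq2 in CON (adjusted p = 0.0694) and when single replicates of either group were left out (edgeR adjusted p up to 0.0681 in OAA without replicate 3 and 0.291 in CON without replicate 2).

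ELF3 had a high ratio at its stop codon and a low one at its start codon. Its stop codon peak, chr10:24241580-24242354 on the plus strand, held 6902, 6195 and 6137 reads in labelled input against 691, 589 and 615 in labelled IP of OAA, and 6948, 4671 and 7445 against 552, 605 and 642 in CON. The ratio was 1.44 ± 0.09 in OAA (SE, edgeR adjusted p = 1.04e-15) and 1.36 ± 0.09 in CON (adjusted p = 5.03e-15). The start codon peak, chr10:24237893-24238456, held only 57 to 67 reads per labelled-input library and 24 to 32 per labelled-IP library in OAA. Its ratio was -0.82 ± 0.29 in OAA (adjusted p = 0.0146) and -1.08 ± 0.29 in CON (adjusted p = 0.00145). The stop codon peak exceeded it in 6 of 6 replicates, by 2.35 ± 0.41 (SD, range 1.84 to 2.77). The low start codon call in OAA was lost without OAA replicate 1 (edgeR adjusted p = 0.107) and without OAA replicate 2 (adjusted p = 0.0804).

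VIM and KRT8, the filament genes of the set with the highest FPKM, each had a single peak at the start codon with a ratio below 0. The VIM peak, chr10:43517457-43517781 on the plus strand, held 7847, 7846 and 7638 reads in labelled input against 3540, 3489 and 2464 in labelled IP of OAA. In CON it held 8822, 5712 and 8123 in labelled input against 2309, 2813 and 2406 in labelled IP. Its ratio was -0.60 ± 0.09 in OAA (SE, edgeR adjusted p = 3.19e-07) and -0.45 ± 0.09 in CON (adjusted p = 3.56e-05). The KRT8 peak, chr5:18180059-18180308 on the minus strand, had -0.57 ± 0.09 in OAA (adjusted p = 6.43e-07) and -0.54 ± 0.09 in CON (adjusted p = 2.19e-06), negative in each of the 6 replicates. Among the 114 genes with a mean of at least 500 FPKM, VIM among them, 51.8% had exactly 1 peak, and among the 499 genes with 100 to 500 FPKM, KRT8 among them, 39.3% did.

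EPCAM was called higher in OAA and not in CON, the change itself was not called, and the peaks of KRT18 and KRT7 were called in neither group. The EPCAM peak, chr3:93185200-93185424 on the minus strand, had 0.34 ± 0.12 in OAA (edgeR adjusted p = 0.0138) and 0.26 ± 0.12 in CON (adjusted p = 0.0557). The OAA call rested on replicate 3: its ratio was 0.82, against 0.03 and 0.16 in OAA replicates 1 and 2, and without it the edgeR estimate was 0.12 with an adjusted p of 0.37. The KRT18 peak, chr5:18217716-18218967 on the plus strand, had 0.00 ± 0.17 in OAA and 0.15 ± 0.17 in CON, uncalled in both. It was 1252 bases wide, a 24.8% share of the gene span, and was also listed under an antisense gene that was at 0 FPKM in all 6 libraries. The KRT7 peaks, chr5:17555764-17555813 and chr5:17555814-17555888, abut each other and held few reads, 0 to 5 and 5 to 17 per labelled-IP library. Their ratios were 0.99 ± 0.74 in OAA and 0.79 ± 0.73 in CON for the 50-base peak, and -0.24 ± 0.52 in OAA and -0.53 ± 0.49 in CON for the 75-base one, all uncalled with wide errors.

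**Figure D3:**
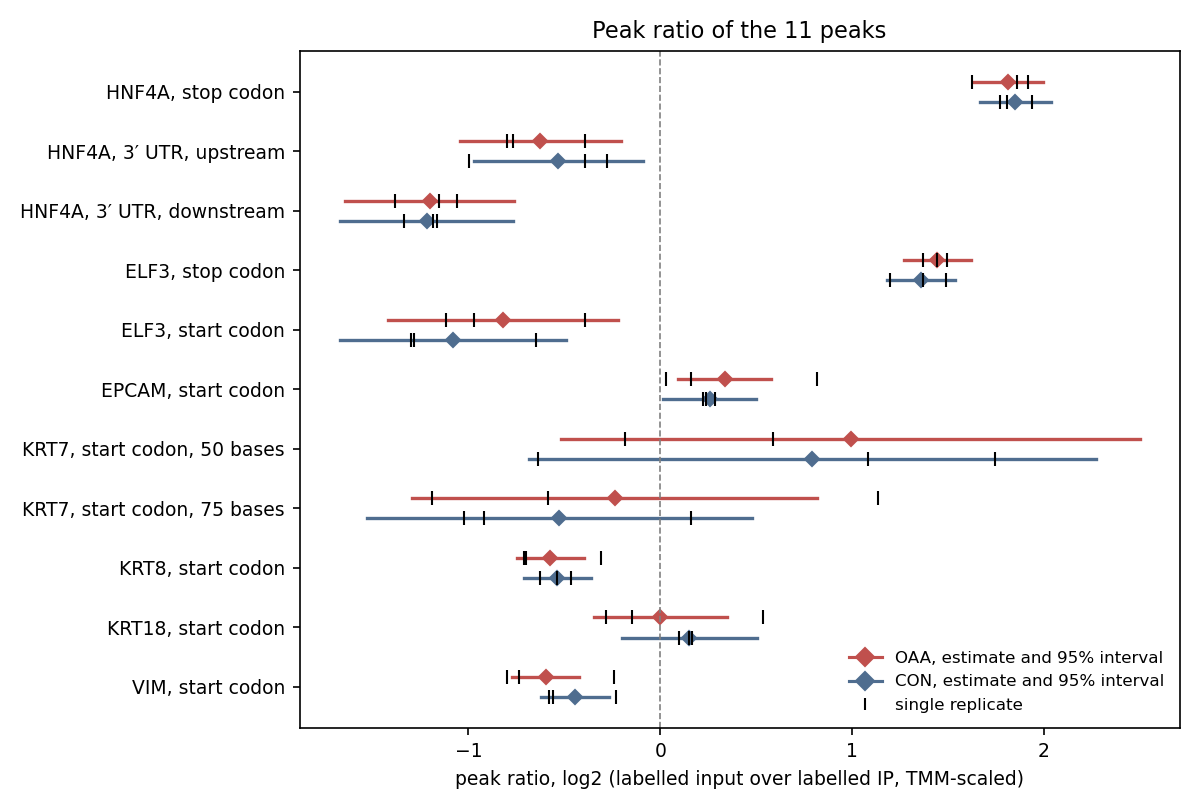
Log2 peak ratio (labelled input over labelled IP) of the 11 peaks. Diamonds are edgeR estimates with 95% intervals, OAA above CON, and ticks are single replicates (one OAA replicate of the 50-base KRT7 peak has no tick because its labelled-IP count is 0). Stop codon peaks lie above 1, and the KRT7 intervals span 0.

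Over the 11 peaks, 3 were called higher and 5 lower in OAA, and 2 higher and 5 lower in CON. Of all 24145 peaks tested, 68.5% were called in OAA (34.1% higher and 34.4% lower) and 68.1% in CON (33.9% higher and 34.2% lower). In either direction 8 of the 11 were called in OAA and 7 in CON, near the shares of the whole table. Whether the split into higher and lower departs from that of all peaks was not tested, and 11 peaks are few. The start codon peaks of the set gave 1 higher and 3 lower of 7 in OAA and 0 higher and 3 lower of 7 in CON. Among all start codon peaks 24.7% were higher and 35.7% lower in OAA, and 24.3% were higher and 35.5% lower in CON, with medians of -0.17 in OAA and -0.18 in CON. Both stop codon peaks were called higher, as were 45.3% of stop codon peaks in OAA and 45.6% in CON. With library sizes in place of TMM, the median of all peaks was -0.24 in OAA and -0.28 in CON. The split of higher and lower calls was then 6729 and 9892 in OAA and 6516 and 10068 in CON, against 8237 and 8295 in OAA and 8181 and 8250 in CON with TMM. Under it KRT18 read -0.27 in OAA and -0.15 in CON, and EPCAM read 0.06 in OAA (adjusted p = 0.665) and -0.05 in CON. The calls of the other peaks held.

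No change of a peak ratio between OAA and CON was called in the set. edgeR called 0 of 24145 changes (0%), 1076 (4.46%) were at an unadjusted p under 0.05, and DESeq2 called 1. For the 11 peaks, 6 changes were above 0 and 5 below, between -0.15 (VIM) and 0.29 (KRT7), all with adjusted p of 0.999 or more. At the HNF4A stop codon the change was -0.04 (95% interval -0.30 to 0.22), and at the ELF3 stop codon it was 0.09 (-0.16 to 0.33). At the KRT8 start codon it was -0.04 (-0.29 to 0.21). The sparse 50-base KRT7 peak bounds little, with a change of 0.20 (-1.95 to 2.35) that ran from -0.57 without OAA replicate 2 to 0.94 without OAA replicate 1. The authors' deposited table, whose ratios sit on another scale with medians of 4.04 in OAA and 3.97 in CON, gives the HNF4A stop codon 5.78 in OAA and 5.73 in CON. Its adjusted p for the change is 1.00 at all 11 peaks.

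Reads in the peaks, taken within each kind of library, did not pass the test either. In labelled input edgeR called 0 of 24835 peaks (0%), with 1292 (5.20%) at an unadjusted p under 0.05 and 2 called by DESeq2, and the 11 peaks lay between -0.27 and 0.33. In labelled IP it called 1 of 20098 (0.00498%), with 779 (3.88%) at an unadjusted p under 0.05. None of the 10 peaks of the set that could be tested was called. The VIM start codon peak had 643 ± 112 CPM in OAA and 556 ± 33.7 CPM in CON in labelled IP (SD, n = 3 each), a log2 difference of 0.20 ± 0.08 (SE, edgeR p of 0.0247, adjusted p of 0.998). Without OAA replicate 3 it was 0.34 with an edgeR adjusted p of 1.19e-06, 1 of 50 peaks then called. Of 100 alternative values for the 10 peaks in labelled IP, this VIM value was the only 1 that gained a call. The same peak in labelled input had 422 ± 15.8 CPM in OAA and 405 ± 32.1 CPM in CON, a log2 difference of 0.06 ± 0.07 (SE).

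**Figure D4:**
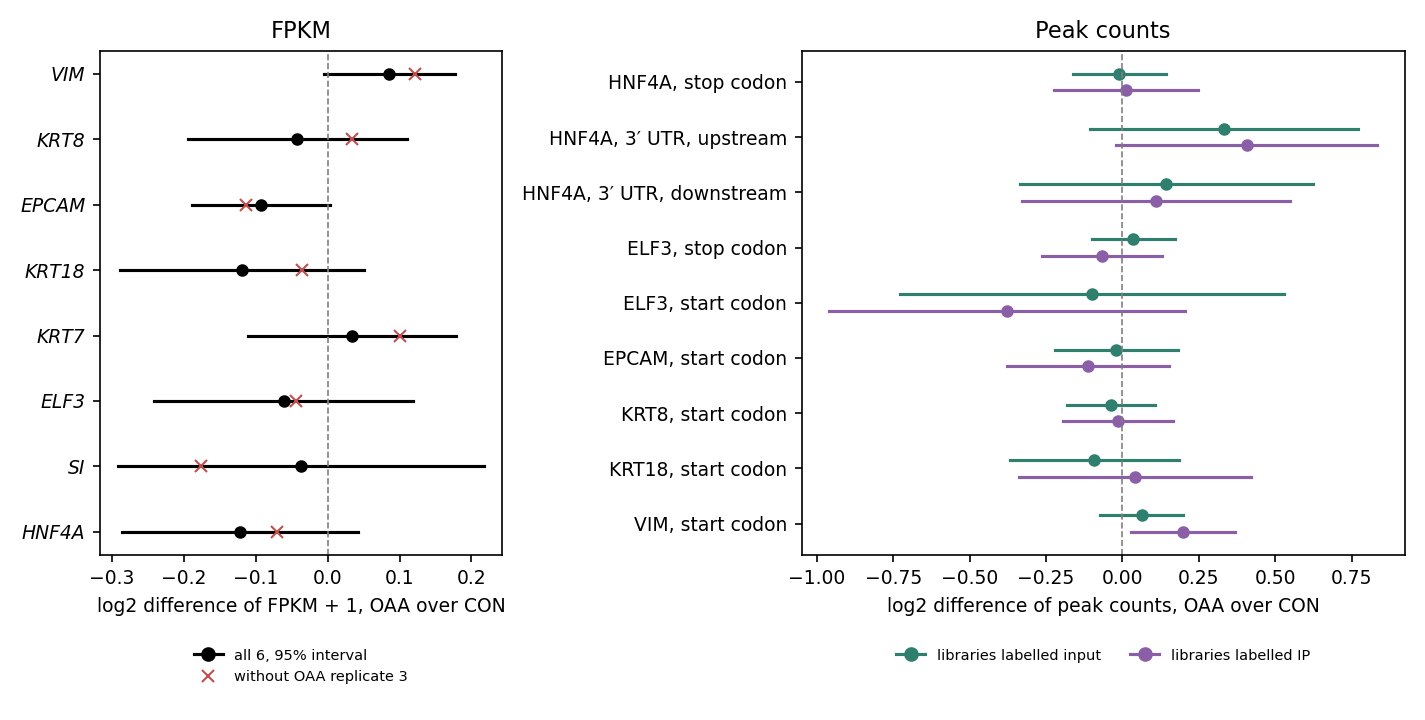
Log2 differences, OAA over CON, of FPKM + 1 for 8 genes (left) and of reads in 9 peaks (right), with 95% intervals. Crosses give the FPKM estimate without OAA replicate 3, and the sparse KRT7 peaks are left out. VIM in labelled IP is the one peak interval that does not cross 0, and its adjusted p was 0.998.

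Around the 9 genes, 7 lists of related genes were read for their levels and peaks, and in none was a gene or a change of a peak ratio called between OAA and CON. Of 12 keratins with a level, 7 could be tested, KRT7, KRT8 and KRT18 among them, with 3 above and 4 below 0 and a median of -0.04. The 4 others, KRT14, KRT80, KRT23 and KRT10, had 2 above and 2 below 0. Among epithelial surface genes, CD24 was at 598 ± 18.03 FPKM in OAA and 579 ± 14.9 FPKM in CON and the tight junction gene CLDN4 at 235 ± 17.4 FPKM in OAA and 245 ± 18.2 FPKM in CON. Of 14 tested, 6 were above and 8 below 0 (median -0.04). CLDN7, another tight junction gene, had the largest difference, -0.43 (unadjusted limma p of 0.008, adjusted p of 1.00), at 1.62 ± 0.272 FPKM in OAA and 2.56 ± 0.531 FPKM in CON.

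Some mesenchymal genes besides VIM had FPKM values as high as the keratins, but only 7 of 13 in the list had a mean of at least 1 FPKM. Below it over the 6 libraries were, besides CDH2, ZEB2 (0.512), COL1A1 (0.182), SNAI2 (0.0625), ACTA2 (0.0223) and COL3A1 (0.00333). FN1 (fibronectin) was at 484 ± 13.8 FPKM in OAA and 482 ± 19.5 FPKM in CON, and S100A4 at 452 ± 23.5 FPKM in OAA and 433 ± 2.07 FPKM in CON. By contrast the mesenchymal cadherin CDH2 was at 0.153 ± 0.0110 FPKM in OAA and 0.148 ± 0.0978 FPKM in CON, while the epithelial cadherin CDH1 was at 128 ± 4.51 FPKM in OAA and 131 ± 9.14 FPKM in CON. Of 7 mesenchymal genes tested 6 were above 0 and 1 below (median 0.06), and of 11 other filament and partner genes 4 were above and 7 below (median -0.01; 6 above and 5 below, median 0.01, with upper quartile scaling). The nuclear lamin gene LMNA and the cytolinker gene PLEC followed VIM in that list. SYNM (synemin), which binds vimentin, had -0.33 (unadjusted limma p of 0.0166, adjusted p of 1.00).

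Among regulators, KLF5 led the epithelial factors at 51.3 ± 2.59 FPKM in OAA and 53.4 ± 0.790 FPKM in CON, ahead of ELF3 and KLF4. Of 10 tested 4 were above and 6 below 0 (median -0.06). Among intestinal regulators, GATA6 was at 10.2 ± 0.105 FPKM in OAA and 9.89 ± 0.313 FPKM in CON, close to HNF4A. Of 6 regulators tested, 4 were above and 2 below 0 (median 0.03), up to 0.27 for PPARA (unadjusted limma p of 0.015, adjusted p of 1.00). The intestinal master regulator CDX2 was at 0.0170 ± 0.0294 FPKM in OAA and 0.0303 ± 0.0316 FPKM in CON, and GATA4 was listed at 0. Brush border genes were led by EZR at 111 ± 3.80 FPKM in OAA and 110.0 ± 4.27 FPKM in CON, then SI and USH1C. Of 6 tested 1 was above and 5 below 0 (median -0.04).

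Stop codon peaks of the regulators mostly had ratios above the typical peak, as HNF4A and ELF3 did. In the intestinal list 7 of 9 stop codon peaks were called higher in OAA and 7 of 9 in CON, and in the epithelial factor list 8 of 9 in OAA and 8 of 9 in CON, with none called lower. Over all stop codon peaks the share called higher was 45.3% in OAA and 45.6% in CON. GRHL3 had 0.88 in OAA and 0.77 in CON, and KLF5 had 0.44 in OAA and 0.51 in CON. Epithelial surface genes had 3 higher and 3 lower of 6 stop codon peaks in both groups, and a median over all 27 peaks of -0.78 in OAA and -0.50 in CON. Medians over all peaks were 1.00 in OAA and 0.86 in CON for epithelial factors, 0.44 in OAA and 0.63 in CON for intestinal regulators, and 0.27 in OAA and 0.32 in CON for keratins. For all peaks tested the median was 0.03 in both groups. With library size scaling, 7 of 9 stop codon peaks in OAA and 7 of 9 in CON were called higher in the intestinal list, and 7 of 9 in OAA and 8 of 9 in CON among the factors, beside 39.0% in OAA and 38.6% in CON of all stop codon peaks. Epithelial surface genes then had 2 higher and 3 lower in both groups. The medians over all peaks were then 0.72 in OAA and 0.56 in CON for epithelial factors, 0.16 in OAA and 0.33 in CON for intestinal regulators, -1.05 in OAA and -0.80 in CON for surface genes, and -0.01 in OAA and 0.01 in CON for keratins. These shares describe lists that include HNF4A and ELF3, and the difference between lists was not tested.

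**Figure D5:**
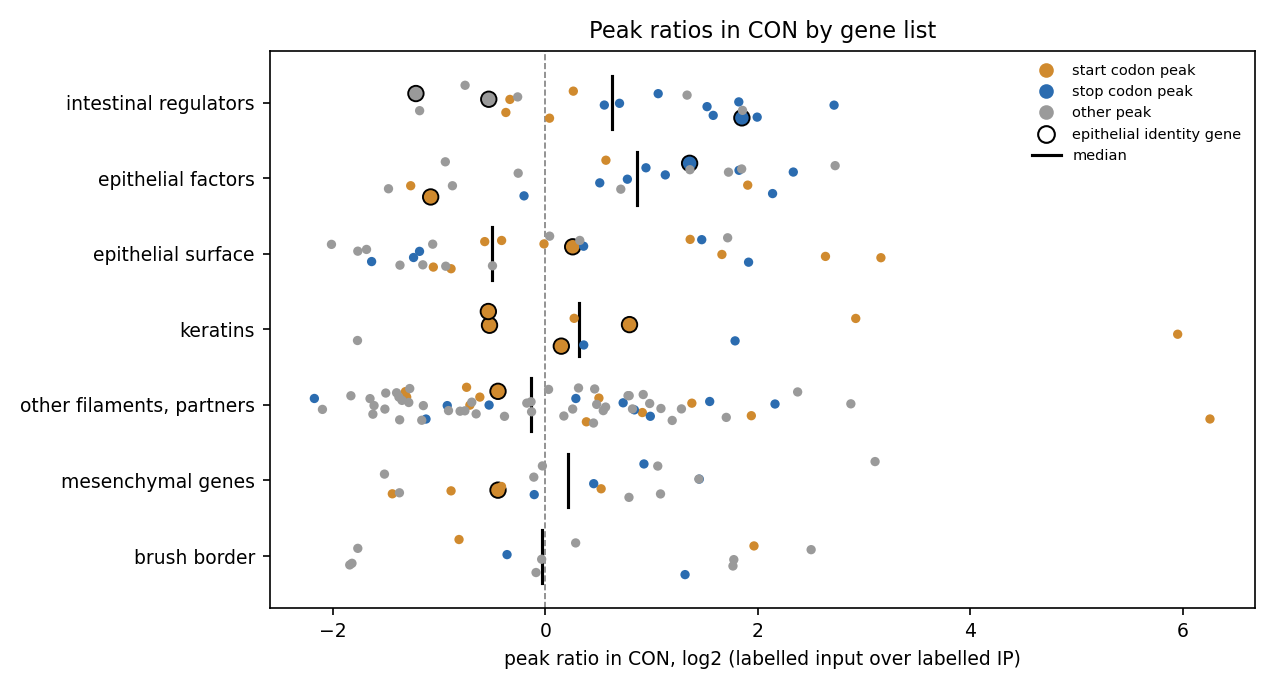
Log2 peak ratio in CON (x axis) of every tested peak of 7 gene lists (rows). Points are peaks, coloured by place, large ringed points are epithelial identity genes (VIM appears in 2 lists), vertical positions within a row are spread for sight only, and black bars are medians. Stop codon peaks of the intestinal regulators and epithelial factors lie to the right of 0 but for 1, and the start codon peaks of VIM and KRT8 lie to the left.

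The genes nearest to each of the 8 in level over the 6 libraries were found by the root mean square difference of log2(FPKM + 1). VIM was nearest to FTH1 (0.06), a ferritin chain gene, and RPL9 (0.07). KRT8 was nearest to PRDX1 and TMSB4X (0.08 each), EPCAM to LAPTM4A and ASAH1 (0.05 each), KRT18 to SNU13 (0.06) and PPDPF (0.07), and KRT7 to GIPC1 and SCAMP3 (0.03 each). ELF3 was nearest to CTDNEP1 (0.06) and Gsta4 (0.07), SI to RAD17 (0.05) and GOPC (0.06), and HNF4A to PRPF4 and TMEM201 (0.04 each). The measure finds genes of like level only.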

How the data were processed

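The authors deposited raw read counts per merged peak for 12 libraries, with log2 ratios per treatment and p-values (also as −log10 p, not used) for their change, and FPKM per gene for 6 libraries, per the file headers. Bowtie2 and HISAT2 were used, per the submitters' processing notes, with no version or role named; the peak caller and build are likewise not given. Listed peak starts lay 1 below a gene start in 791 peaks and at it in 9, so 1 was added. Counts of distinct peaks were fitted with edgeR 4.0.16 (TMM, filterByExpr, quasi-likelihood F test) in R 4.3.3 over all libraries for ratios and within 1 kind of library for OAA against CON. FPKM was tested with limma 3.58.1 (trend) on log2(FPKM + 1), a scale that understates differences of low genes, where 3 or more libraries reached 1 FPKM. Calls are Benjamini-Hochberg adjusted p under 0.05 over all features tested. Scripts were tested on simulated data. DESeq2 1.42.0, other scalings, filters and pseudocounts, a replicate block and leaving out replicates were alternatives. The 9 genes and all lists were chosen with earlier results of these data known. The genes named are the 9 and, per list, the 3 highest in FPKM, those at the ends of a range, and a few added after their values were seen (LGR5 and other markers at 0, CDH1, CDH2, CDX2, the GRHL3 and KLF5 peaks). Some items that this rule selects are not reported here. Intervals on counts cover counting error and the spread between libraries.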

Additional observations from a re-analysis of the deposited data

How the results depend on the processing

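No called result of the 9 genes reversed under any alternative run. Of 40 uncalled OAA over CON differences and changes, 23 turned sign in 38 of 400 alternative values. Counts of calls moved as follows. For FPKM the count was 1 with no filter. For the change of the ratio it was 1 with DESeq2, 1 with the replicate block and 0 to 1 with a replicate left out. For labelled input it was 2 with DESeq2, 1 with the replicate block and 0 to 1 with a replicate left out. For labelled IP it was 0 with library size scaling, 4 with no filter, 4 with the replicate block and 0 to 50 with a replicate left out, the 50 without OAA replicate 3. EPCAM in CON was called with DESeq2 (0.34, adjusted p of 0.00863), and in OAA its call was lost under library size scaling. The pairing was checked on deviations from group means. Same-numbered labelled-input and labelled-IP libraries correlated between -0.01 and 0.06, and differently numbered ones between -0.04 and 0.03. Same-numbered OAA and CON libraries in FPKM correlated between -0.25 and -0.04, and differently numbered ones between -0.13 and 0.21. The main fits did not treat numbers as pairs, although the labels give each replicate a library of both kinds. The replicate block is given here only. Ratios of single replicates, however, divide labelled input by labelled IP of the same number. Their ranges and SDs depend on that pairing. Peaks with few reads, such as those of KRT7, limit what can be seen, and 3 libraries a group limit the rest.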
